A study of Drosophila melanogaster with 2 samples.

Results

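The nuclear genes for the subunits of oxidative phosphorylation were examined in a chromatin immunoprecipitation sequencing (ChIP-seq) experiment on CG9705, a cold-shock domain protein of Drosophila melanogaster. Genes were taken by symbol from the Ensembl annotation of protein-coding genes: those starting with ND- (complex I), Sdh and a letter from A to D (complex II), UQCR- (complex III), COX and a digit (complex IV) or ATPsyn (complex V). The rule found 87 of 13945 protein-coding genes. Of these, 63 were subunit genes and 24 were paralogs whose symbol ends in L, or in L and a digit. ND-MNLL, named for its residues, was counted with the subunits. Complexes I to V held 34, 4, 6, 8 and 11 subunit genes and 6, 3, 3, 8 and 4 paralogs. Subunits encoded by the mitochondrial genome, and nuclear subunits with other symbols, lie outside the rule.

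The chromatin came from whole wandering L3 larvae, the last larval stage, of 1 transgenic line that stably expresses CG9705 with GFP joined to its C terminus. Males and females were pooled and the age is given as unknown. There were 2 biological replicates of this 1 group and no other genotype, treatment or stage, so no condition was compared. The labels disagree on the libraries: a free-text line calls both an input control, whereas the antibody is given as CG9705, the assay as transcription factor ChIP-seq, and a separate control is listed. They were taken as ChIP libraries. If the free-text line were right, the peaks would mark sheared chromatin and not CG9705. All tissues of the larva were mixed, so a peak in a few cells and a weak peak in all cells cannot be told apart.

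Oxidative phosphorylation is the chain by which mitochondria turn the energy of food into ATP. Complex I (NADH dehydrogenase) and complex II (succinate dehydrogenase) feed electrons to ubiquinone, complex III (the cytochrome bc1 complex) passes them to cytochrome c, and complex IV (cytochrome c oxidase) gives them to oxygen. Complexes I, III and IV pump protons, and complex V (ATP synthase) makes ATP from the returning flow. Most subunits are encoded in the nucleus, must be made in matched amounts, and are needed in every growing larval tissue. Many of the L paralogs of the fly are known for expression in the testis. Roles given below for single subunits are mostly known from the mammalian complexes.

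Any annotated transcript start of a gene with a summit at most 500 bp away gave that gene a peak. Relaxed lists of 30000 entries, background included, were deposited for replicate 1, replicate 2 and their pool, together with 3533 peaks called optimal after the authors' filter on reproducibility. The optimal set was the 3533 highest-scoring pooled peaks. The authors' peak score has no stated scale, so ranks within a list are given, with rank 1 the strongest, and replicate ranks give replicate 1 before replicate 2. Coordinates are on dm6. Depth was not given in these files, and no interval based on it is printed.

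An optimal summit lay at 19 of the 63 subunit genes (30.2%) and at 0 of the 24 paralogs, which made 19 of 87 members (21.8%). The same count over all protein-coding genes was 19.1%, so the share of all members was close to the background. The complexes were unequal. Complex IV had 6 of 8 subunit genes with an optimal summit, complex I had 9 of 34, complex V had 3 of 11, complex II had 1 of 4 and complex III had 0 of 6. Of the 19 peaks, 17 lay where the subunit gene and a gene on the opposite strand start head to head. Such a partner was also found for 1569 of the 2661 protein-coding genes with an optimal summit. Of the 19 peaks, 17 were counted for at least 2 genes.

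The DNA at these summits was AT-rich. The windows below are shown because they are the centres of the peaks that the counts above rest on. Each has 101 bases with the summit in the middle, written 5′ to 3′ on the strand of the subunit gene, from RefSeq Release 6 of the genome. They are 9 of the 19 windows, all of them free of annotated UTR bases. Capitals mark matches to TATAAA (ND-ASHI, ND-42 and ND-SGDH, where matches on both strands overlap), to CCAAT (ND-51, on the other strand, and COX7B) or to the DNA replication-related element TATCGATA (SdhC). COX8, ATPsynCF6 and ND-MNLL held no match to any motif searched.
ND-ASHI, chrX:6679317-6679417, minus strand: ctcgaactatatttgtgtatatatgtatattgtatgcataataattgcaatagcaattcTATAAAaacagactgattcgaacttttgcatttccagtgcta
ND-42, chr3R:22027566-22027666, plus strand: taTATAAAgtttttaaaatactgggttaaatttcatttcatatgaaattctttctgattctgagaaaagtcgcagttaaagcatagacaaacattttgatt
ND-SGDH, chr3L:12138617-12138717, minus strand: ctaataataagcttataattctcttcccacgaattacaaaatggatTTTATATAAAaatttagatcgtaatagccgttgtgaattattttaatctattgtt
ND-51, chr2L:6062822-6062922, minus strand: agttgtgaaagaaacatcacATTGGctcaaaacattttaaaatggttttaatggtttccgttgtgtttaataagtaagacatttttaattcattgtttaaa
COX7B, chr3L:17425305-17425405, plus strand: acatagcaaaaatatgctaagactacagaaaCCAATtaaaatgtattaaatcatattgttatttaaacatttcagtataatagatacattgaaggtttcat
COX8, chr3L:21539495-21539595, minus strand: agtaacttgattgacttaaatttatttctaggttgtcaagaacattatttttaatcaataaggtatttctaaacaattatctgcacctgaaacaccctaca
ATPsynCF6, chr3R:23356166-23356266, minus strand: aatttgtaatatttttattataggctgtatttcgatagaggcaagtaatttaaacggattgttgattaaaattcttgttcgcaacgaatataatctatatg
ND-MNLL, chrX:7893799-7893899, minus strand: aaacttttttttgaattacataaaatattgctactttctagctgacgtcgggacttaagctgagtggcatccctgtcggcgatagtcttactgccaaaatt
SdhC, chr3R:11210108-11210208, minus strand: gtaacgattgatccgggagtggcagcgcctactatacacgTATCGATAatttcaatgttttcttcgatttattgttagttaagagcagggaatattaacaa
The GC content of these 9 windows was between 22.8% in COX7B and 38.6% in ND-MNLL. Over all 19 member summits it averaged 32.8%, against 34.7% over the 1962 optimal summits at protein-coding starts.

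Complex I, which has 34 of the 63 subunit genes, held the strongest member peaks. The median rank of the best optimal peak was 1756 at members and 1592 over all protein-coding genes, so the member peaks were not strong as a set. ND-ASHI, an accessory subunit of the membrane arm, had the best rank of all members: 238 in the pool (score 521), 250 in replicate 1 and 248 in replicate 2. Its summit lay 249 bp upstream of ND-ASHI and 273 bp upstream of Fum1, the fumarase of the citric acid cycle, within an intron of Fum1. The peak, whose window is the first sequence above, was thus shared by a complex I gene and a gene of the citric acid cycle. ND-MWFE, a small membrane-arm subunit, followed at rank 389 at chr2R:13158357-13158637, with 496 and 335 in replicates 1 and 2. This summit was 196 bp upstream of ND-MWFE and only 25 bp upstream of TppII, which encodes tripeptidyl-peptidase II. ND-42, an accessory subunit of the matrix side of the membrane arm, had rank 498 (561 and 469 in replicates 1 and 2), 93 bp upstream of its start. Its partner there was Cchl, which encodes the lyase that attaches heme to cytochrome c, at 136 bp.

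These were the members within the best 500 pooled peaks, and no replicate ranked any of them below 561. They made up 3 of 63 subunit genes (4.76%), beside 3.23% of all protein-coding genes. ND-SGDH, a membrane-arm subunit, had rank 810 (743 and 866 in replicates 1 and 2), 83 bp upstream of its start. ND-51, the core subunit that binds NADH and FMN, had rank 1025 (replicate ranks 1264 and 850), midway between ND-51 and CG13994, 115 and 117 bp upstream of their starts. ND-24, the iron-sulfur core subunit that sits next to ND-51 in the complex, had rank 2537 at chrX:17632038-17632437 (replicate ranks 2523 and 3015). Its summit was 83 bp upstream of the nearest ND-24 start, in an intron of a longer ND-24 transcript, and 191 bp upstream of corolla, a gene of the synaptonemal complex.

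The other complex I genes with an optimal summit encode small accessory subunits. ND-MNLL had rank 1756 (replicate ranks 1576 and 2160), with the summit 51 bp upstream of the start it shares with CG45089 and 182 bp upstream of p115, a Golgi tethering factor. ND-13B had rank 1919 at chr3L:10693935-10694334 (replicate ranks 1921 and 2163), 27 bp upstream. ND-B22 had rank 2026 at chr2L:13371004-13371103 (replicate ranks 2150 and 1960), 31 bp upstream of its nearest start. These last peaks, at ND-13B and ND-B22, were the member peaks with no second gene and no head-to-head partner.

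Complex IV was the only complex in which most subunit genes had an optimal summit. By the nearest start, or with peaks that cover a start, it was 4 of 8 and thus not most. None of the 8 ranked within the best 1000 pooled peaks, beside 6.09% of all protein-coding genes. With 8 genes, nothing is read from this. Each complex IV gene with an optimal summit has a head-to-head partner, whereas COX7C and COX4, without such a summit, have none. Whether complex IV differs from the other complexes apart from this arrangement was not tested. COX7B had rank 1051 (1326 and 966 in replicates 1 and 2), 122 bp upstream, with Sec3, an exocyst subunit, at 138 bp. COX8 had rank 1316 (replicate ranks 1152 and 1331), 98 bp upstream. Its partner VhaM9.7-b, a subunit of the vacuolar proton pump, was counted for the same peak at 317 bp. COX6B had rank 2128 at chrX:19744101-19744500 (replicate ranks 2732 and 1748) with the pooled summit 34 bp downstream of its start. Both replicates placed their summit at 1 and the same base, 39 bp upstream of a COX6B start. CG18809 has the same start as COX6B, and CG33932 and Rpp20, a subunit of RNase P, start 130 bp from the summit on the other strand.

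COX5A had rank 2240 at chr3R:11819338-11819737 (replicate ranks 2536 and 2254). Its summit was 61 bp upstream of the nearest COX5A start, in an intron of a longer COX5A transcript. The peak was shared with glo, which encodes the RNA-binding protein Glorund, at 118 bp. COX5B had rank 2321 at chr2L:6557320-6557719 (replicate ranks 2820 and 1943). This summit lay 280 bp from COX5B and 18 bp from IFT52, an intraflagellar transport gene. COX7A had rank 2597 at chr3R:8340904-8341303, and its replicates were the most unequal of the 19: rank 4830 in replicate 1 and 1942 in replicate 2. The summit was 61 bp upstream of COX7A and 4 bp downstream of the start of Arl2, a small GTPase of tubulin assembly, in its 5' UTR. The 2 complex IV subunit genes with no optimal summit were COX7C, at pooled rank 5286, and COX4, at 22372 with no peak in replicate 1.

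Complex V had 3 genes with an optimal summit, each from a different part of the enzyme. ATPsynE, a subunit of the membrane part, had rank 978 at chr3R:14326868-14327069 (replicate ranks 1136 and 977), 27 bp downstream of its start in the 5' UTR, with Afti, a trafficking gene, at 285 bp. ATPsynCF6, coupling factor 6 of the peripheral stalk, had rank 1639 (replicate ranks 2211 and 1535), 152 bp upstream, but Sec13, a coat and nuclear pore protein, was nearer at 62 bp. ATPsyngamma, the central stalk that turns inside the catalytic head, had rank 3175 at chr3R:29748726-29749125 (replicate ranks 3679 and 3166), with yata at 293 bp. It was the only one of the 19 whose −log10 q value, 3.33, was below the highest of the optimal list, 3.77. In complex II, SdhC, a membrane anchor subunit, had rank 2921 (replicate ranks 3485 and 2272). Its summit lay 309 bp from SdhC and 89 bp from Tctp, a growth regulator, and its window holds the one DRE match printed above.

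**Figure D1:**
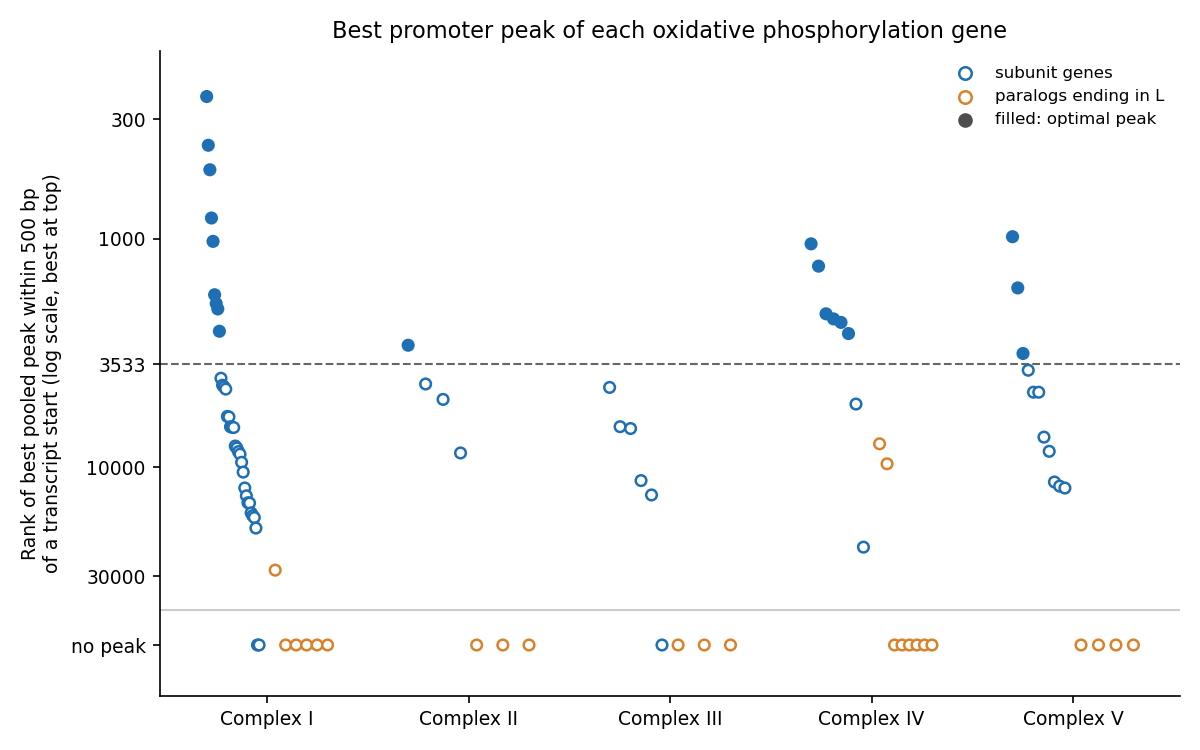
Rank of the best pooled peak within 500 bp of a start (log scale, strongest at the top) for each of the 87 members by complex, with subunit genes in blue left of paralogs in orange. Filled points have an optimal peak; 60 of 63 subunit genes and 3 of 24 paralogs have a rank, and the others stand in the no-peak band.

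The threshold of 500 bp cut through few members. Just inside it were SdhC at 309 bp and COX5B at 280 bp. Just outside were COX7AL2, with an optimal summit 613 bp from a start in its own intron (rank 2388), and ND-75, the largest core subunit of complex I, with one at 769 bp. Where each optimal peak was given only to the nearest start, 14 members kept theirs (16.1%, against 13.6% of all protein-coding genes), all of them subunits: 8 of complex I, 4 of complex IV and 2 of complex V. The peaks at ND-MWFE, COX5B, COX7A, SdhC and ATPsynCF6 were nearer to the partner gene.

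The replicates gave like counts when the best 3533 peaks of each were used alone. Replicate 1 had such a summit at 19 members (21.8%, against 18.2% of all protein-coding genes) and replicate 2 at 21 members (24.1%, against 19.7%). Of the 19 members with an optimal summit, 17 (89.5%) were among the best 3533 peaks of both replicates, beside 2171 of 2661 (81.6%) of all genes with an optimal summit. The exceptions, COX7A and ATPsyngamma, met this in replicate 2 alone. Outside the optimal set, ND-23 and SdhD met it in replicate 1 alone and ATPsynF and ND-B17.2 in replicate 2 alone. In complex II and complex V the counts moved between replicates: 2 and 1 genes of complex II, and 2 and 4 genes of complex V, in replicates 1 and 2.

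**Figure D2:**
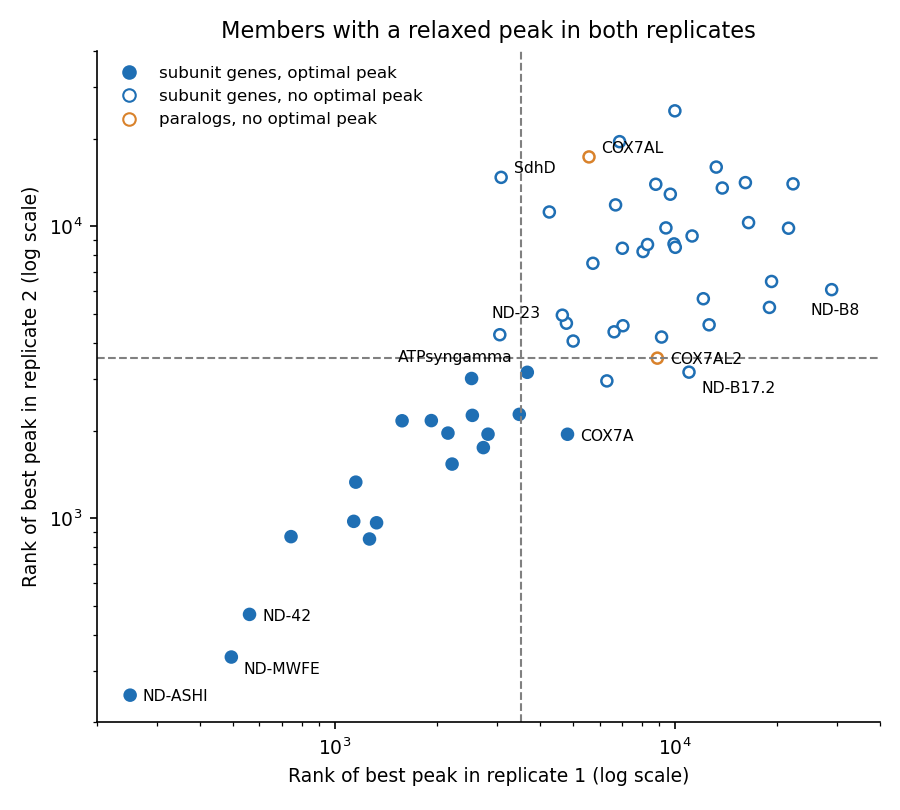
Rank of each member's best peak in replicate 1 and replicate 2 (both axes log scale) for the 56 members with a relaxed peak in both, with dashed lines at rank 3533. The optimal members (filled) follow the diagonal from ND-ASHI at 250 and 248, with COX7A at 4830 and 1942 the farthest from it; the open points scatter.

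Over the 19 optimal members the replicates' best summits lay a median of 19 bp apart, and at most 66 bp apart. The same distance over all protein-coding genes with an optimal summit had a median of 27 bp. For the 35 subunit genes without an optimal summit but with a relaxed peak in both replicates the median was 115 bp, beside 102 bp over the protein-coding genes of the same kind. Ranks in the replicates had Spearman coefficients of 0.807 over the 19 and 0.236 over the 35, a description over genes that share the same libraries and, in each set, a limited range of ranks. Over all 6390 protein-coding genes with a peak in both replicates it was 0.827.

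Below the optimal threshold the subunit genes came up quickly, while the paralogs did not. Of the pooled peaks to rank 7500, 38 of 63 subunit genes had one (60.3%), beside 32.6% of all protein-coding genes. To rank 15000 it was 55 of 63 subunit genes (87.3%) and 2 of 24 paralogs, beside 43.9%. In the full pooled list it was 60 of 63 subunit genes (95.2%) and 3 of 24 paralogs (12.5%), together 63 of 87 members (72.4%), beside 53.9%. With genes without a peak placed behind the last rank, the median pooled rank was 6018 for subunit genes and 22726 for all protein-coding genes. The relaxed lists hold background by design, so the fold of the shares says nothing of how many of these weak peaks are binding sites.

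**Figure D3:**
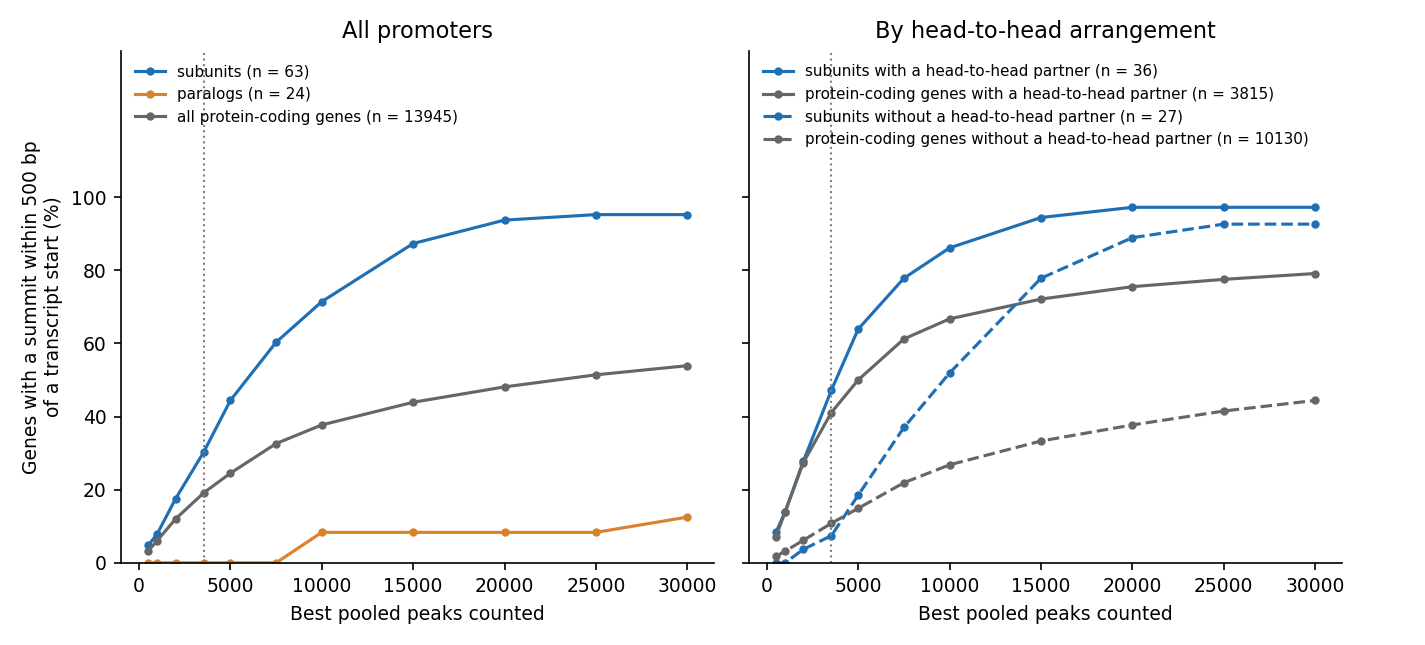
Percent of genes with a pooled summit within 500 bp of a start as more peaks are counted from the strongest down; the left panel shows subunit genes, paralogs and all protein-coding genes, the right panel the genes with (solid) and without (dashed) a head-to-head partner. Subunit genes reach 95.2% and all protein-coding genes 53.9% at 30000 peaks, and the dotted line marks the 3533 optimal peaks.

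The single replicates were alike in this. A relaxed summit of replicate 1 lay at 61 members (70.1%, against 54.2% of all protein-coding genes), and one of replicate 2 at 65 members (74.7%, against 54.5%). Both replicates had one at 54 of 63 subunit genes (85.7%) and 2 of 24 paralogs, beside 45.8%. With the further condition that the best summits of the replicates lie at most 100 bp apart, 35 of 63 subunit genes (55.6%) and 0 of 24 paralogs were left, beside 30.5%.

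The 10 subunit genes next in pooled rank came from complexes I, II, III and V and included core and catalytic subunits. ATPsynF, a membrane subunit of ATP synthase, came first at pooled rank 3759 (6305 in replicate 1 and 2958 in replicate 2). ND-23, an iron-sulfur core subunit of complex I, had rank 4074 (replicate ranks 3054 and 4258). SdhB, the iron-sulfur subunit of complex II, had rank 4318 with 3851 in replicate 2 and no peak in replicate 1. ND-49, a core subunit near the quinone site, had rank 4447 (replicate ranks 4794 and 4663), and UQCR-14 of complex III had rank 4470 (replicate ranks 4664 and 4968).

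The accessory subunits ND-B17.2 and ND-B18 had ranks 4371 (replicate ranks 10995 and 3170) and 4545 (replicate ranks 7030 and 4571). ATPsynB, of the peripheral stalk, had rank 4690 (replicate ranks 6622 and 4357). ATPsynbeta, the catalytic subunit, had rank 4692 (replicate ranks 5019 and 4051), but its replicate summits were 603 bp apart, at −416 and 187 bp from the same start. SdhD, the other membrane anchor of complex II, had rank 5044 with 3082 in replicate 1 and 14734 in replicate 2. SdhD and ND-B17.2 thus had ranks far apart in the replicates and SdhB a peak in 1 replicate alone, while ND-49 and UQCR-14 had ranks close together.

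Complex III, which had no optimal summit, was not without peaks: 5 of its 6 subunit genes had a pooled relaxed peak, at ranks of 4470 (UQCR-14), 6640 (UQCR-C2), 6765 (UQCR-C1), 11436 (UQCR-Q) and 13217 (UQCR-11). UQCR-C1 and UQCR-C2 encode its core proteins. UQCR-6.4 had a peak in replicate 2 alone, at rank 19202. ND-B12 and ND-B14.7, both accessory subunits of complex I, had none in any list.

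The paralogs stood at the other end. Pooled peaks were found at COX7AL2 (rank 7892, 293 bp downstream of a start), COX7AL (rank 9655) and ND-51L1 (rank 28205, at −444 bp). At COX7AL2 the replicates' best summits were 5110 bp apart, at ranks 8873 and 3540, and at COX7AL 494 bp apart, at ranks 5587 and 17312. ND-20L, COX4L and COX6AL2 had a peak in replicate 2 alone, at ranks 21105, 20670 and 18711. UQCR-11L, COX5BL and COX6AL had one in replicate 1 alone, at ranks 18614, 17010 and 24126. No paralog of complex II or complex V had a peak in any list.

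Gene arrangement differed between the subunit genes, the paralogs and the genome. A start on the opposite strand within 500 bp upstream, called a head-to-head partner here, was found for 36 of 63 subunit genes (57.1%) and 3 of 24 paralogs (12.5%), beside 27.4% of all protein-coding genes. Among genes with such a partner an optimal summit lay at 17 of 36 subunit genes (47.2%), beside 41.1% of all protein-coding genes. Among genes without one it lay at 2 of 27 subunit genes (7.41%), beside 10.8%. By this count the share of subunit genes was thus near the background within each arrangement. By the nearest start it was 12 of 36 with a partner (33.3%, beside 22.6%) and 2 of 27 without (7.41%, beside 10.2%). With 36 and 27 genes, single genes move these shares by several percent.

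The relaxed list was different. With a partner, 35 of 36 subunit genes had a pooled relaxed summit (97.2%, beside 79.1% of all protein-coding genes), and without one 25 of 27 had it (92.6%, beside 44.4%). The median pooled rank of the subunit genes, with those that have no peak placed behind the last rank, was 3916.5 with a partner and 8757 without one. Optimal peaks counted for more than 1 gene made up 17 of 19 at members (89.5%). Over all protein-coding starts they were 857 of 1962 (43.7%). The member peaks were reached through genes, which favours shared peaks, whereas the count over all starts takes each peak once. These shares are thus not like for like, and no excess at members is read from them. A shared peak cannot be assigned to either gene from these data. By arm, an optimal summit lay at 3 of 12 subunit genes on 2L (18.5% of all protein-coding genes there), 1 of 11 on 2R (18.2%), 4 of 13 on 3L (19.5%), 7 of 13 on 3R (20.9%), 4 of 12 on X (17.8%) and 0 of 2 on chromosome 4 (12.5%). With so few genes on each arm, no order of the arms is read from these counts.

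Summits lay upstream of the nearest start of the gene at members as often as at other genes. Of the 19 optimal members, 17 had their summit upstream (89.5%, beside 89.2% of all protein-coding genes with an optimal summit) and 2 (ATPsynE and COX6B) downstream, with a median of −83 bp and a range from −309 to 34 bp. The median over all protein-coding genes with an optimal summit was −127 bp. In the pooled list the 63 members with a peak had 49 summits upstream (77.8%, beside 77.4%), 1 at the start and 13 downstream, with a median of −71 bp, beside −104 bp. By annotation, 10 of the 19 summits were intergenic, 4 lay in a 5' UTR of the member, 2 in an intron of the member, and 3 in another gene (introns of Fum1 and TppII, and the 5' UTR of Arl2). Those at ND-24, COX5A, ND-B22 and ATPsyngamma were upstream of the nearest start but inside the gene, downstream of another of its starts.

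**Figure D4:**
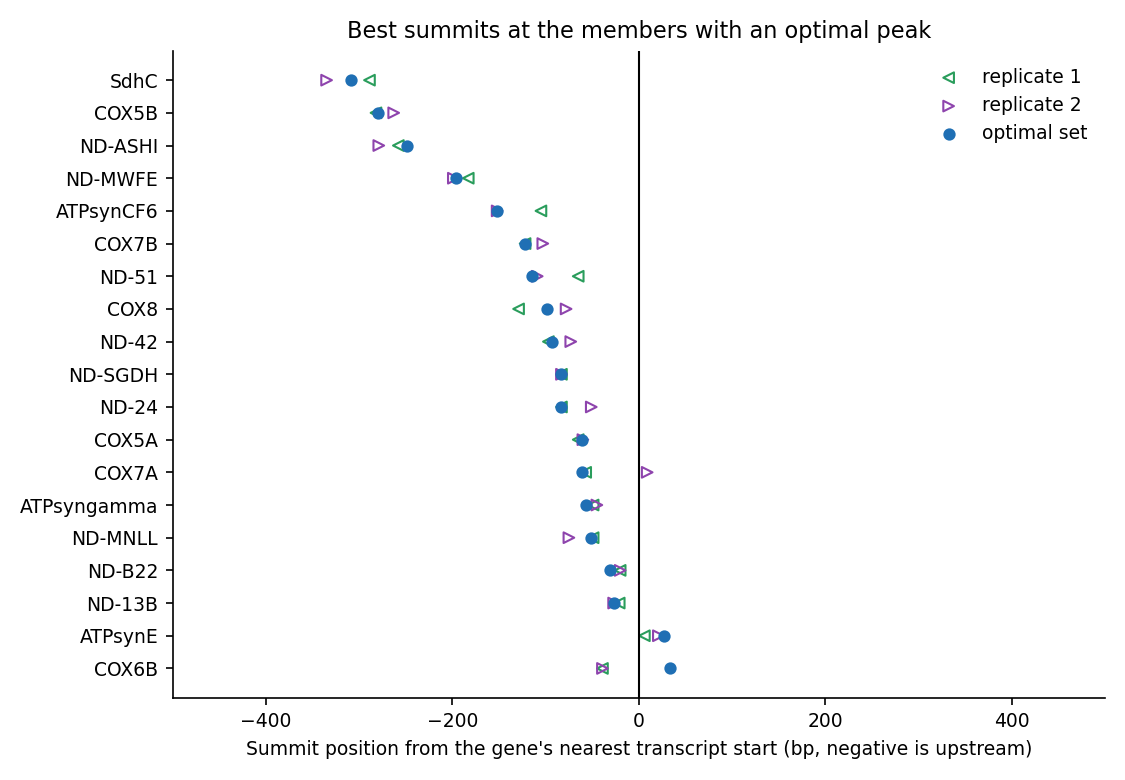
Position of the best summit from the nearest start of its gene, in bp with upstream negative, at the 19 members with an optimal peak: blue points for the optimal set, triangles for replicates 1 and 2. Most summits stand within 150 bp upstream; SdhC at −309 bp is the farthest.

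Motifs of housekeeping and mitochondrial promoters were counted in the promoter of each gene, from 250 bases before to 50 after its canonical start, on both strands. The set comprised 10 motifs, and matches of different motifs may overlap. One gene has no canonical start on the arms used, which left 13944 promoters. Ohler motif 1, the site of the fly factor M1BP, here by its core GGTCACAC, was in 16 of 63 subunit promoters (25.4%) and 1 of 24 paralog promoters (4.17%), beside 7.54% of all. It was in 4 of the 19 subunit promoters with an optimal summit and in 12 of the 44 without. CAGCTG, the E-box of another core promoter motif of housekeeping genes, was in 21 subunit promoters (33.3%) and 8.33% of paralog promoters, beside 17.9% of all. The DRE was in 12.7% of subunit promoters and 0 paralog promoters, beside 8.94%. The exact 95% binomial interval of this subunit share ran from 5.65% to 23.5%, which includes the share of all promoters.

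ND-B17, an accessory subunit of complex I with a weak pooled peak (rank 13333) and no optimal one, has motif 1 close to its start. Its pooled summit lay at −291 bp, outside the stretch printed here. Over the subunit promoters the first base of the core stood from −237 bp (ATPsynC) to 33 bp (ND-ACP), so ND-B17 is 1 example only. The last 120 bases before the ND-B17 start hold the core and are printed here, since they touch no annotated UTR. The capitals mark the core.
ND-B17, chr2L:15751079-15751198, minus strand: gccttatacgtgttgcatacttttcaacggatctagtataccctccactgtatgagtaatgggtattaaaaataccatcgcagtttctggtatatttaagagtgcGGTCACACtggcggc
Of the remaining motifs, TATAAA and CCAAT stood above the share of all promoters in subunit promoters, and the others stood below it. For TATAAA and CCAAT the exact 95% binomial intervals, 40.9% to 66.6% and 36.4% to 62.1%, include the share of all promoters. GAGAG, the core bound by GAGA factor, was in 17.5% of subunit and 41.7% of paralog promoters, beside 30.2% of all. TATAAA was in 54.0% and 37.5%, beside 45.3%, and CCAAT in 49.2% and 33.3%, beside 46.5%. The Ets core CCGGAA was in 6.35% and 4.17%, beside 6.69%, and CACGTG in 3.17% and 8.33%, beside 4.26%. The nuclear respiratory gene element and the NRF-1 site, searched by their degenerate consensus, were in 0 of 63 subunit promoters, beside 0.143% and 0.122% of all. That says only that these letters were not in this window. Mean GC content was 35.5% in subunit promoters and 35.8% in paralog promoters, beside 39.3% over all.

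**Figure D5:**
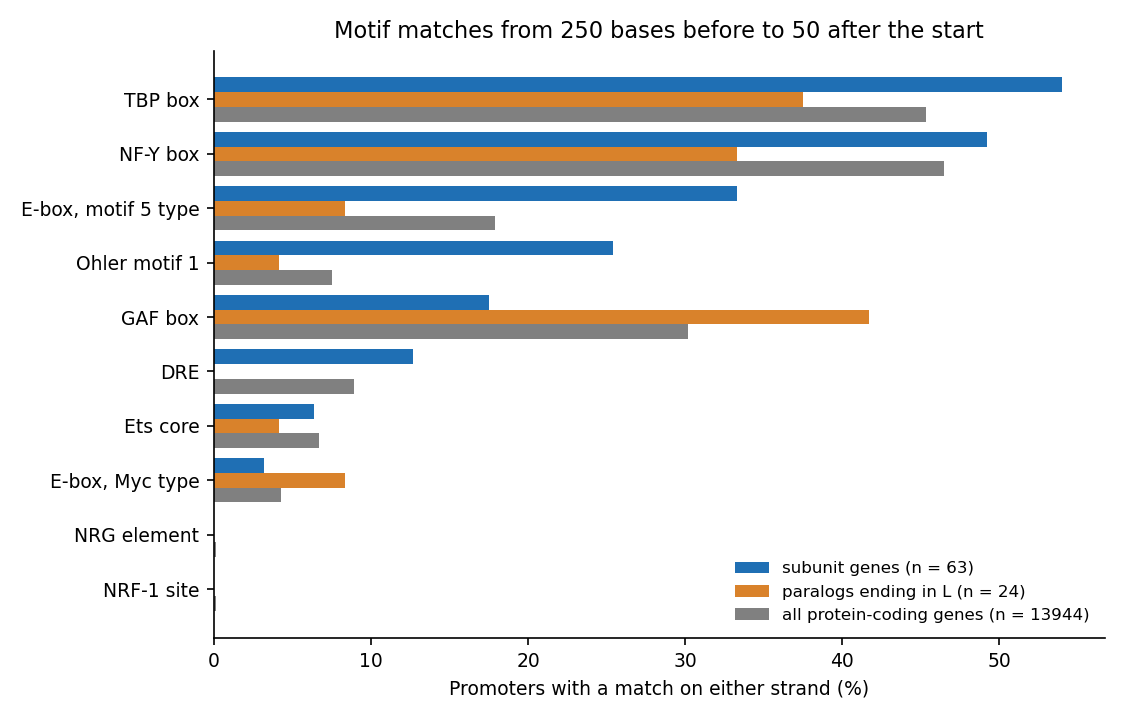
Percent of promoters (250 bases before to 50 after the start) with a match on either strand, for subunit genes, paralogs and all protein-coding genes from top to bottom within each motif. The TBP box is TATAAA, the NF-Y box is CCAAT, the GAF box is GAGAG, the motif 5 type E-box is CAGCTG and the Myc type E-box is CACGTG. Ohler motif 1 is in 25.4% of subunit promoters and 7.54% of all.

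The windows around the summits are shorter than the promoters, so their shares are set only beside those of other summits. Within 50 bases of the 19 member summits motif 1 was found at 0, beside 1.94% of the 1962 optimal summits at protein-coding starts, and the DRE at 1 (5.26%, beside 4.33%), the SdhC peak printed above. TATAAA was at 6 of 19 (31.6%, beside 22.1%) and CCAAT at 3 (15.8%, beside 18.2%). The exact 95% binomial interval of the TATAAA share ran from 12.6% to 56.6%, which includes the share of all such summits.

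Related genes were taken from 4 lists, to be read against the 19.1% of all protein-coding genes with an optimal summit and the 13.6% by the nearest start. Of 9 further subunit and cytochrome c genes with other symbols, 4 had an optimal summit (44.4%): Cyt-c-d (rank 755) and blw (960), which encode a cytochrome c and the alpha subunit of ATP synthase, and levy (1702) and cype (2487), both complex IV subunits. By the nearest start it was 1 (11.1%). Of 19 enzymes of the citric acid cycle and pyruvate dehydrogenase, 7 had one (36.8%): Idh3g (rank 152), Fum1 (238, the peak shared with ND-ASHI), mAcon1 (374), Pdhb (1092), Idh3b (1839), Idh3a (2357) and muc (2984). These include all 3 subunits of the NAD-dependent isocitrate dehydrogenase. By the nearest start it was 4 (21.1%).

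Of 20 regulators of mitochondrial biogenesis and transcription, 5 had one (25%, and 15.0% by the nearest start, both near the background): Dref (429), ERR (522), mtSSB (1230), crc (1666) and mTerf5 (2718). Dref is the factor that binds the DRE, and ERR is the nuclear receptor known for control of larval carbohydrate metabolism. Of the assembly factors only 16 of 44 names matched the annotation, and 4 had an optimal summit (25%): CIA30 (27), Ttc19 (588), Cox17 (1053) and Coa8 (3285). By the nearest start it was 3 (18.8%). With 16 genes, single genes move these shares by several percent. In the pooled relaxed list the 4 lists had 8 of 9, 14 of 19, 16 of 20 and 14 of 16 genes, beside 53.9% of all protein-coding genes.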

How the data were processed

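ChIP-seq peaks of 2 replicates of 1 group were analysed. Per the deposited file notes, each replicate and the pool has a relaxed narrowPeak list of peaks and background made from the alignments and 1 control file on dm6, and the optimal set was derived from these lists by IDR. Aligner, peak caller and the IDR cut-off were not given in the sources used here. As deposited, the authors' score is a signal value of unstated scale, and it served here for ranks within each list. The deposited −log10 q value is capped and was not used for ranks. Per the labels, chromatin was sonicated to 200 to 800 bp. Depth is unknown.

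Genes and starts (19607 distinct protein-coding starts) came from Ensembl release 115 (BDGP6.54), and sequence from RefSeq Release 6. A summit within 500 bp counted for each gene. No test was run: 1 group has no comparison, and members and lists were chosen with earlier results of these data known. Genes named in full were those with an optimal summit, the 10 next by pooled rank and paralogs with a relaxed peak. Alternatives were other windows, start rules, peak subsets, partner distances, motif windows and each replicate alone. Peak assignment and motif search were tested on simulated data. Software was pandas 2.3.3, numpy 2.4.6, matplotlib 3.10.9 and scipy 1.17.1 under Python 3.11.15. One partner gene is not reported here.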

Additional observations from a re-analysis of the deposited data

How the results depend on the processing

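Of 163 alternative values, 133 stayed within 1.5 times of a count, within the replicates' SD of a median or within the exact interval of a motif share. These 133 include counts and shares that stayed at 0, such as those of complex III. The intervals at the 19 member summits were wide, up to 17.6% for a motif found at 0 of them. With the 1766 higher-scoring optimal peaks, an optimal summit lay at 10 members, all subunits, of which 0 were in complex II and 2 in complex IV, beside 1475 protein-coding genes, and at 4 citric acid cycle and pyruvate dehydrogenase genes. At 250 bp complex II had 0, the regulators 3 (15.0%) and the further subunit genes 2 (22.2%), beside 15.6% of all protein-coding genes. At 1000 bp 1 paralog had an optimal summit (4.17%, beside 21.6% of all protein-coding genes). A relaxed one was found at 5 of 24 paralogs, beside 8357 of 13945 protein-coding genes. With the nearest start only, complex II had 0, the citric acid cycle list 4 (21.1%), the regulators 3 (15.0%) and the further subunit genes 1 (11.1%). The share of all protein-coding genes was then 13.6%. With peaks that cover a start, complex II had 0 and all protein-coding genes 1630 (11.7%). The citric acid cycle list, assembly factors, regulators and further subunit genes had 3, 2, 3 and 1 (15.8%, 12.5%, 15.0% and 11.1%). A partner within 250 bp gave 11 of 24 subunit genes with a partner (45.8%, beside 36.9% of all protein-coding genes). Without one it gave 8 of 39 (20.5%, beside 16.1%). A partner within 1000 bp gave 17 of 40 (42.5%, beside 36.0%) and 2 of 23 (8.7%, beside 9.46%). The numbers of genes in this split thus depend on the partner distance.

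With 1 replicate left out, members with a summit among the best 3533 peaks numbered 19 to 21, complex II 1 to 2 and paralogs with a relaxed peak 5 to 6. From 500 bases before to 50 after the start, CCAAT was in 71.4%, GAGAG in 31.7% and TATAAA in 73.0% of subunit promoters, beside 68.5%, 44.8% and 63.1% of all. Within 50 bases of member summits CAGCTG, 1 of the 10 motifs, was in 5.26%, beside 4.54% of optimal summits at protein-coding starts. Within 100 bases it was in 31.6% (exact 95% interval 12.6% to 56.6%), beside 11.7%. It was also in 31.8% of subunit promoters without an optimal summit, counted in the longer promoter window. The cause of the change with the summit window was not tested. With 1 group of 2 samples and unknown depth, no error beyond the replicates' own values can be given.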
